A study of Mus musculus with 12 samples.

Results

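The thin filament, Z-disc and titin-associated genes are 31 genes whose proteins build and hold together the contractile unit of heart muscle, the sarcomere. They were taken from a fixed list by gene symbol, and each was read from its probe set with exactly 1 symbol and the highest mean over the 12 arrays. All 31 were found, among 19938 genes measured. They comprise 9 genes of the thin filament, 2 of titin and the thick filament, 12 of the Z-disc and its attachments, 3 of the M-band, 2 of the intercalated disc and 3 chaperones. RNA was measured on arrays of dissected mouse embryo hearts at stage E8.75, in 4 genotypes of 3 arrays each: Tbx5 KO;Nkx2-5 KO (called double KO here), Nkx2-5 KO, Tbx5 KO and WT. The labels call the arrays of a genotype biological replicates, and do not say how either allele was made, in which strain, or whether hearts were pooled. The crossed design asks which genes depend on Nkx2-5, which on Tbx5, and which change when both factors are missing.

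In a sarcomere, thin filaments of actin slide past thick filaments of myosin. Tropomyosin and the troponin complex sit on the thin filament and make its contact with myosin depend on calcium. Thin filaments are anchored at the Z-disc, thick filaments are linked at the M-band, and titin spans from one to the other. Nkx2-5, a homeodomain protein, and Tbx5, a T-box protein, are transcription factors that act together on many heart muscle genes.

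The promoter sequences of 4 members are shown because their RNA followed 4 different courses in the results. Smpx was lower in all 3 mutant genotypes by unequal amounts, Myoz2 was lower in all 3, at overlapping levels, Tnni3 was lowest where Tbx5 was missing, and Actc1 stayed nearly level. Each line holds the 250 bases before the start on the gene's own strand, from the RefSeq promoter table of build GRCm38.p6. Capitals mark matches to the motifs named after the sequences.
Smpx, chrX:157698723-157698972, plus strand: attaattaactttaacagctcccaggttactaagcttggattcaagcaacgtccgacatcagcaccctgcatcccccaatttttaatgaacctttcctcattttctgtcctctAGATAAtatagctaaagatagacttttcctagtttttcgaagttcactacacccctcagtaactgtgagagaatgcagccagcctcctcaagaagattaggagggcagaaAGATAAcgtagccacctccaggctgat
Myoz2, chr3:123034988-123035237, minus strand: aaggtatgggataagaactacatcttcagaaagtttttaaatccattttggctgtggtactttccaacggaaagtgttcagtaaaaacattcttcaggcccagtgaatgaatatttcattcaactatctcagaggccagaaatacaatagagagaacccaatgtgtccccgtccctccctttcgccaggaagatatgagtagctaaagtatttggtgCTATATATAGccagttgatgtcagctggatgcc
Tnni3, chr7:4522529-4522778, minus strand: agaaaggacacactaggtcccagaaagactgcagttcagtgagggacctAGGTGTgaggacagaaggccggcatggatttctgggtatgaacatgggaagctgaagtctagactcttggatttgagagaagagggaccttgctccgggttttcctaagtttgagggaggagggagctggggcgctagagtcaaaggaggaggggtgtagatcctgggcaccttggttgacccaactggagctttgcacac
Actc1, chr2:114052876-114053125, minus strand: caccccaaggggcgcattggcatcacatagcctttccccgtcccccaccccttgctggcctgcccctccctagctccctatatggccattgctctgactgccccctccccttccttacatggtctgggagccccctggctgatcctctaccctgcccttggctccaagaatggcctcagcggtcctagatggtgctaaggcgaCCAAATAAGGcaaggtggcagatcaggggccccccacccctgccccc

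In these windows Smpx held 2 matches to the GATA motif AGATAA, Myoz2 held 1 MEF2 site, Tnni3 held 1 match to the T-box core AGGTGT, and Actc1 held 1 CArG box, the element bound by serum response factor. The search covered both strands, and the NKE motif TNAAGTG, where N is any base, was searched as well. Among all 32851 promoter windows of the same length, 11.8% held the T-box core, 10.1% the NKE motif, 9.99% the GATA motif, 1.47% a CArG box and 2.92% a MEF2 site. The table held 37 windows for 27 of the 31 members, with several starts for some genes. It held none for Xirp1, Cryab, Myom2 and Tcap, so their promoters were not searched. Of those windows, 7 held the T-box core (Csrp3, Nebl, Pdlim3, Tnni1, Tnni3 and Unc45b), 1 the NKE motif (Csrp3) and 5 the GATA motif (Myom1, Nebl, Smpx and Tnnt2). A CArG box was held by 6 (Acta1, Actc1, Ldb3, Myom1 and Nebl) and a MEF2 site by 6 (Mybpc3, Myoz2, Synpo2l, Ttn and Xirp2). A match describes letters in a window and not binding.

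Levels are log2 expression values as deposited, given per array or as mean ± SD (n = 3 arrays), and changes are log2 differences ± the standard error (SE) of a limma fit to all genes. A gene is said to have risen or fallen when its p, adjusted over all 19938 genes by Benjamini and Hochberg, was under 0.05. Array medians ran from 8.05 to 8.25, and the SD over probe sets from 2.05 to 2.10 on double KO arrays, 2.13 to 2.16 on Nkx2-5 KO and on Tbx5 KO arrays, and 2.17 to 2.19 on WT arrays. The Nkx2-5 probe set averaged 9.08 ± 0.12 in double KO, 8.94 ± 0.21 in Nkx2-5 KO and 9.35 ± 0.04 in Tbx5 KO, against 9.35 ± 0.01 in WT hearts. The Tbx5 probe set averaged 10.60 ± 0.26 in double KO, 10.32 ± 0.19 in Nkx2-5 KO and 10.53 ± 0.17 in Tbx5 KO, against 10.06 ± 0.14 in WT hearts. The labels do not give the removed part of either gene, so neither probe set serves as a check on the genotypes.

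The sex markers differed between groups. Xist, an RNA made from an inactive X chromosome, had levels of 6.44 to 8.16 on double KO, 6.59 to 7.03 on Nkx2-5 KO, 11.46 to 12.32 on Tbx5 KO and 11.50 to 11.87 on WT arrays. The Y-linked Eif2s3y ran the other way, at 10.37 to 10.61 on double KO, 10.33 to 10.67 on Nkx2-5 KO, 5.13 to 5.68 on Tbx5 KO and 5.07 to 6.92 on WT arrays. Sex markers therefore separate the same groups as the presence of Nkx2-5. For any change between those groups, embryo sex and Nkx2-5 genotype cannot be told apart. Double KO against Nkx2-5 KO, and Tbx5 KO against WT, compare groups with like sex markers.

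Members of the thin filament, titin, the Z-disc, the M-band and the intercalated disc were among those called in mutant hearts, while the group means of Actc1, Tnnc1, Tpm1 and Nebl spanned 0.06, 0.09, 0.07 and 0.04 log2 units. In double KO hearts 9 members fell and 4 rose of 31, or 41.9% called. Of all genes 23.4% were called, 9.05% higher and 14.4% lower. In Nkx2-5 KO hearts 3 members fell (9.68%), against 4.43% of all genes called, 1.84% higher and 2.59% lower. In Tbx5 KO hearts 3 members fell and 1 rose (12.9%), against 2.31% of all genes called, 0.998% higher and 1.31% lower. The double KO split became 6 higher and 8 lower after quantile normalization again, and 2 higher and 11 lower once array medians were made equal. Over all genes, equal medians gave 779 higher and 3769 lower in double KO hearts, beside 1804 and 2868 as deposited, and quantile normalization again gave 1649 and 2699. The Tbx5 KO split became 0 higher and 3 lower with equal medians or a common spread.

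These counts also moved with single arrays. The Tbx5 KO count was 2 without Tbx5 KO replicate 1 or WT replicate 2, and 1 without Tbx5 KO replicate 2 or 3 or WT replicate 1. The Nkx2-5 KO count was 5 without double KO replicate 3. The median change over the members was -0.08 in double KO, -0.13 in Nkx2-5 KO and -0.02 in Tbx5 KO hearts, beside 0.06, 0.00 and 0.01 over all genes. Making array medians equal moved the double KO median of all genes to -0.06, so small changes are relative to that shift. Of the members, 16 (51.6%) were called in none of the 7 comparisons made, against 73.5% of all genes. The 3 comparisons with WT share the WT arrays.

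**Figure D1:**
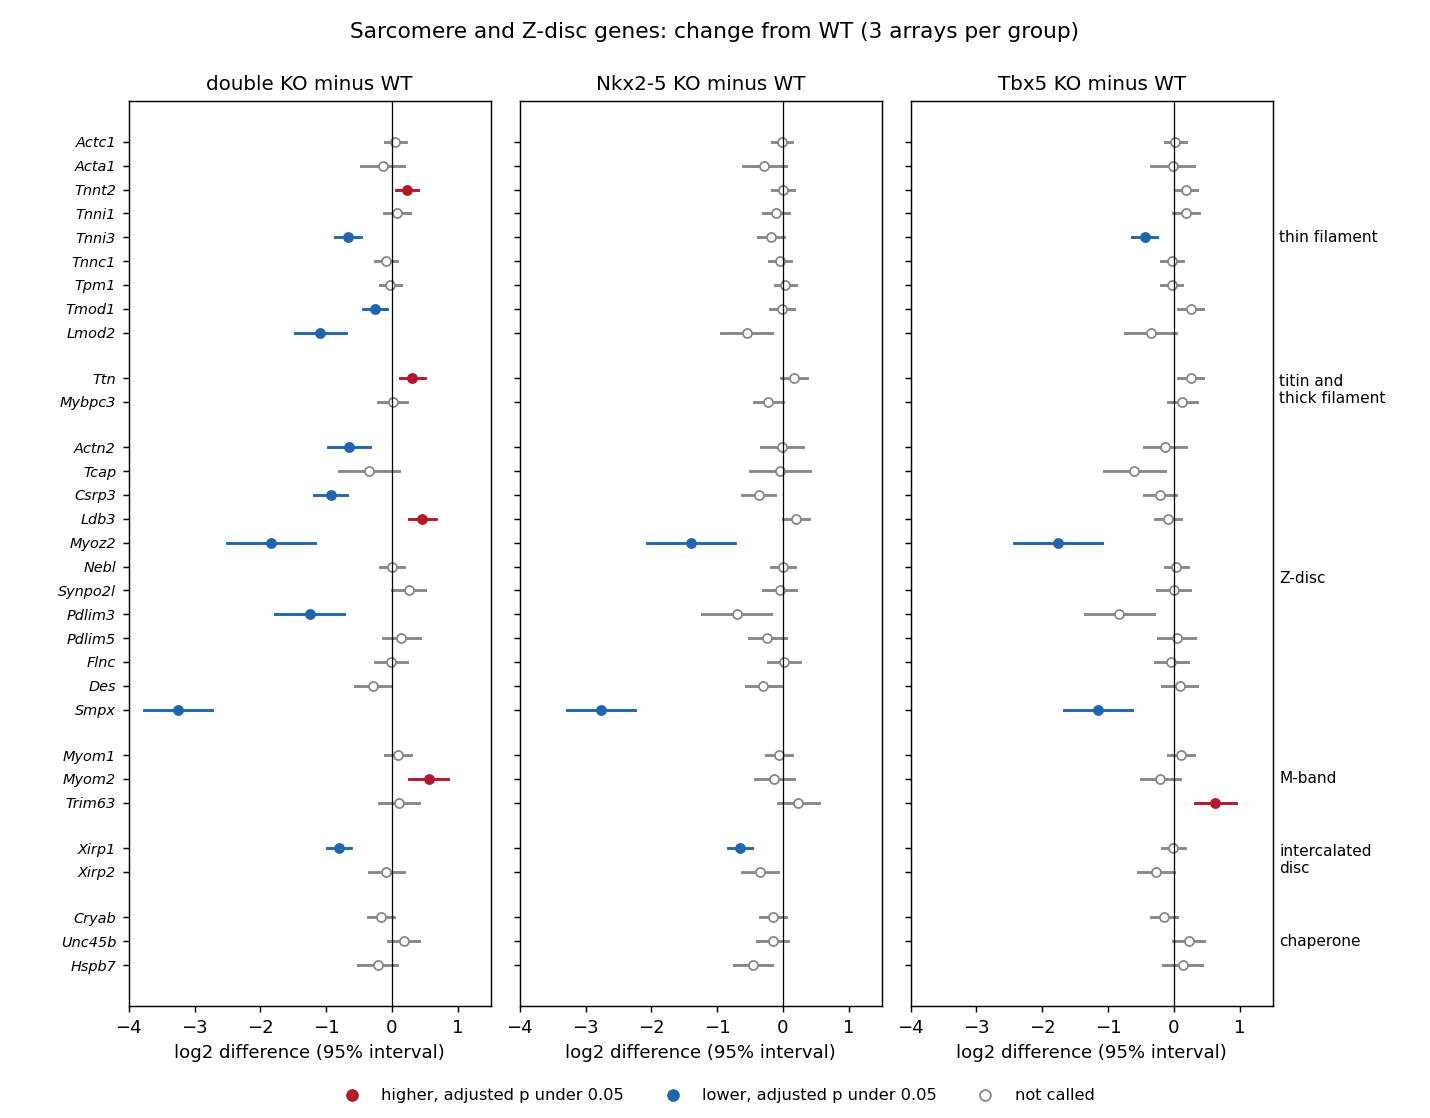
Log2 differences from WT for the 31 members (rows, grouped by place in the sarcomere) in double KO, Nkx2-5 KO and Tbx5 KO hearts, with 95% intervals of the limma fit (3 arrays per group); filled points passed an adjusted p of 0.05. Smpx and Myoz2 lie far left in all 3 panels, and Actc1, Tnnc1 and Tpm1 lie near 0 in each.

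Counts of members whose 3 arrays lay wholly to one side of the other group's were larger than the counts called. Such separation was seen for 7 members upward and 11 downward in double KO against WT (22.4% and 18.7% of all genes), 2 and 10 in Nkx2-5 KO against WT (10.6% and 12.6%), and 7 and 6 in Tbx5 KO against WT (9.72% and 11.4%). It was seen for 11 upward and 7 downward in double KO against Nkx2-5 KO (12.4% and 13.7%), 3 and 12 in double KO against Tbx5 KO (14.5% and 14.5%), and 12 and 4 in Tbx5 KO against Nkx2-5 KO (9.11% and 9.27%).

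Among the thin filament genes, cardiac alpha actin, Actc1, read nearly the same on all arrays. It had 14.15, 14.16 and 14.15 in double KO, 14.09, 14.08 and 14.11 in Nkx2-5 KO and 14.14, 14.12 and 14.11 in Tbx5 KO, against 14.13, 14.09 and 14.10 in WT hearts. Its 4 group means spanned 0.06 log2 units, and the double KO difference of 0.05 ± 0.07 had a 95% interval of -0.11 to 0.21. Tnnc1, the calcium-binding troponin subunit of heart, averaged 13.78 ± 0.02 in double KO, 13.83 ± 0.06 in Nkx2-5 KO and 13.84 ± 0.03 in Tbx5 KO, against 13.88 ± 0.04 in WT hearts. Tpm1, alpha tropomyosin, averaged 13.50 ± 0.03 in double KO, 13.56 ± 0.01 in Nkx2-5 KO and 13.49 ± 0.05 in Tbx5 KO, against 13.53 ± 0.02 in WT hearts. The double KO intervals were -0.26 to 0.07 for Tnnc1 and -0.19 to 0.14 for Tpm1. These 3 probe sets read near the top of the scale, since the brightest probe set of each array lay between 14.64 and 14.74. Whether changes are compressed at such levels was not tested.

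Nebl encodes nebulette, which ties actin to the Z-disc, and its 4 group means had the narrowest span of the 31 members. It averaged 13.06 ± 0.08 in double KO, 13.06 ± 0.05 in Nkx2-5 KO and 13.09 ± 0.06 in Tbx5 KO, against 13.06 ± 0.04 in WT hearts. A second, dimmer probe set of Nebl averaged 9.57 ± 0.09 in double KO, 9.73 ± 0.07 in Nkx2-5 KO and 9.65 ± 0.06 in Tbx5 KO, against 9.62 ± 0.09 in WT hearts. Flnc, filamin C, an actin cross-linker, averaged 10.45 ± 0.10 in double KO, 10.49 ± 0.22 in Nkx2-5 KO and 10.43 ± 0.07 in Tbx5 KO, against 10.47 ± 0.10 in WT hearts. Myom1, the M-band protein myomesin, averaged 12.66 ± 0.02 in double KO, 12.51 ± 0.15 in Nkx2-5 KO and 12.67 ± 0.04 in Tbx5 KO, against 12.57 ± 0.05 in WT hearts. In all, 8 of 31 members (25.8%) had group means within 0.25 log2 units of each other, against 43.9% of all genes. The median span of the 4 means was 0.378 for the members and 0.278 for all genes.

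**Figure D2:**
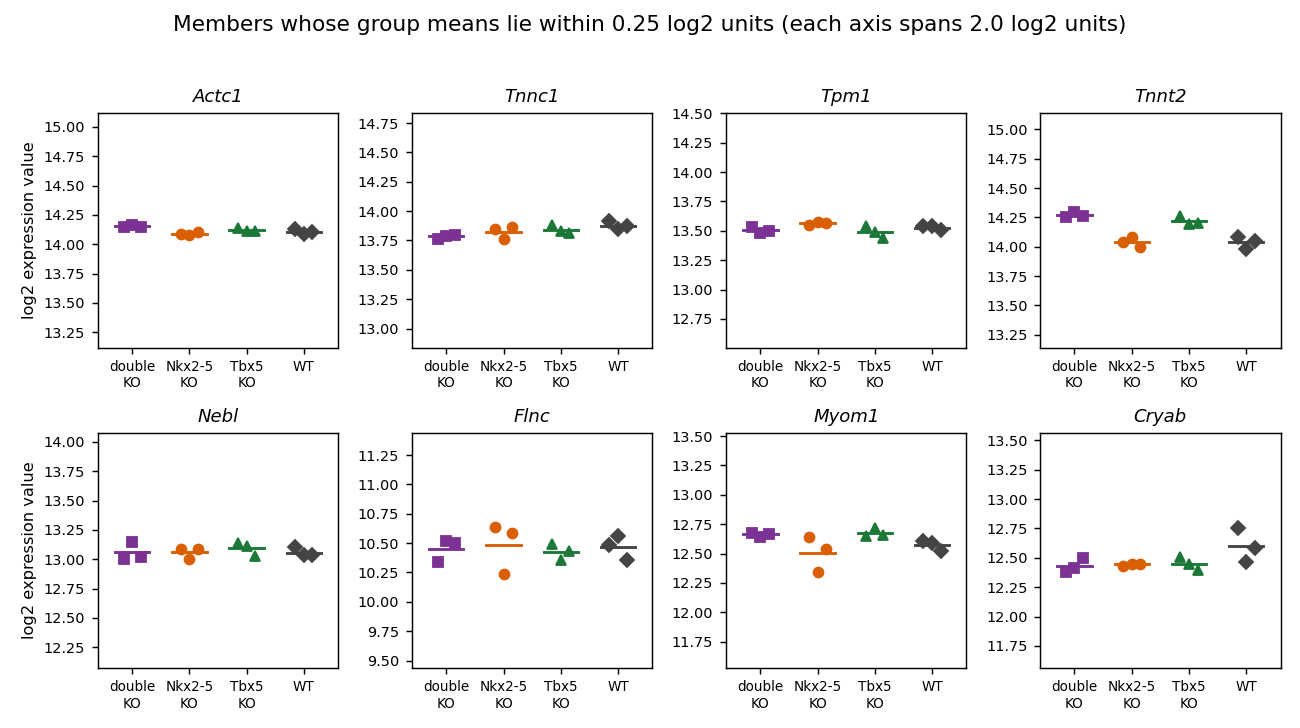
Log2 expression values on each array (points) with group means (lines) for the 8 members whose 4 group means lay within 0.25 log2 units, double KO to WT from left to right, each axis on a span of the same length. Group means of Actc1 span 0.06 and those of Nebl 0.04 log2 units, and Tnnt2 is 0.23 ± 0.08 (SE) higher in double KO than in WT hearts.

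Acta1, the skeletal alpha actin that embryonic heart also makes, showed more scatter and was not called in any comparison. It averaged 12.04 ± 0.17 in double KO, 11.90 ± 0.21 in Nkx2-5 KO and 12.17 ± 0.21 in Tbx5 KO, against 12.19 ± 0.22 in WT hearts. How far the probe sets of Acta1 and Actc1, which encode near-identical proteins, share signal was not tested. Mybpc3, the cardiac myosin-binding protein C of the thick filament, was likewise not called, and averaged 11.53 ± 0.02 in double KO, 11.29 ± 0.19 in Nkx2-5 KO and 11.65 ± 0.04 in Tbx5 KO, against 11.52 ± 0.10 in WT hearts.

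Troponin I blocks the actin-myosin contact at rest, and the heart changes from the slow skeletal form, Tnni1, to the cardiac form, Tnni3, during development. Tnni3 fell where Tbx5 was missing. It had 12.76, 12.75 and 12.51 in double KO, 13.15, 13.17 and 13.17 in Nkx2-5 KO and 12.93, 12.90 and 12.86 in Tbx5 KO, against 13.40, 13.37 and 13.26 in WT hearts. All 6 arrays without Tbx5 lay below all 6 arrays with it, and no pair of the 4 groups overlapped. The difference from WT was -0.45 ± 0.09 (adjusted p = 0.0232) in Tbx5 KO and -0.67 ± 0.09 (adjusted p = 0.000237) in double KO hearts. Double KO against Nkx2-5 KO, groups with like sex markers, gave -0.49 ± 0.09 (adjusted p = 0.00809). The Tbx5 KO call ended without any 1 Tbx5 KO array or WT replicate 1 or 2 (adjusted p 0.0558 to 0.0885) and in a fit to only the arrays compared (0.0504). The Nkx2-5 KO change was -0.18 ± 0.09 (adjusted p = 0.325), and double KO against Tbx5 KO gave -0.23 ± 0.09 (adjusted p = 0.141).

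Tnni1 had 12.39, 12.37 and 12.37 in double KO, 12.25, 12.07 and 12.30 in Nkx2-5 KO and 12.58, 12.44 and 12.45 in Tbx5 KO, against 12.38, 12.24 and 12.30 in WT hearts. Its differences from WT were 0.07 ± 0.09 (adjusted p = 0.59) in double KO, -0.10 ± 0.09 (adjusted p = 0.661) in Nkx2-5 KO and 0.18 ± 0.09 (adjusted p = 0.368) in Tbx5 KO hearts, none of them called. Tnnt2, the cardiac troponin T that anchors the complex to tropomyosin, had 14.25, 14.30 and 14.26 in double KO, 14.04, 14.08 and 14.00 in Nkx2-5 KO and 14.26, 14.19 and 14.21 in Tbx5 KO, against 14.08, 13.98 and 14.05 in WT hearts. The 6 arrays without Tbx5 were all above the 6 arrays with it. The difference from WT was 0.23 ± 0.08 (1.17-fold, adjusted p = 0.046) in double KO and 0.18 ± 0.08 (adjusted p = 0.283) in Tbx5 KO hearts. The Tbx5 KO difference was called with an intensity trend (adjusted p 0.0159). Double KO against Nkx2-5 KO, groups with like sex markers, gave 0.23 ± 0.08 (adjusted p = 0.105). That change was called with an intensity trend or a common spread (adjusted p 0.00223 to 0.0193). The double KO rise against WT ended without any 1 array except Nkx2-5 KO replicate 3 (adjusted p 0.0514 to 0.131). It also ended with equal array medians, after quantile normalization again, with a replicate block and with only the arrays compared (adjusted p 0.0836 to 0.383).

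At the free, pointed end of the thin filament, the leiomodin Lmod2 lengthens the filament and the tropomodulin Tmod1 caps it. Lmod2 had 10.30, 10.11 and 9.58 in double KO, 10.78, 10.43 and 10.41 in Nkx2-5 KO and 10.61, 10.92 and 10.69 in Tbx5 KO, against 11.27, 11.14 and 10.86 in WT hearts. All double KO arrays lay below every other array. Lmod2 fell in double KO hearts against WT (-1.09 ± 0.18, 2.13-fold, adjusted p = 0.000909) and against Tbx5 KO (-0.74 ± 0.18, adjusted p = 0.02). The second of these calls ended without double KO replicate 3 or Tbx5 KO replicate 2 (adjusted p 0.0523 to 0.0729), after quantile normalization again and with only the arrays compared (adjusted p 0.0521 to 0.0597). Double KO against Nkx2-5 KO gave -0.54 ± 0.18 (adjusted p = 0.105). The single KO changes were -0.55 ± 0.18 (adjusted p = 0.107) in Nkx2-5 KO, with adjusted p 0.0434 without double KO replicate 3, and -0.35 ± 0.18 (adjusted p = 0.392) in Tbx5 KO hearts.

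Tmod1 had 11.903, 11.889 and 11.826 in double KO, 12.209, 11.999 and 12.116 in Nkx2-5 KO and 12.400, 12.297 and 12.439 in Tbx5 KO, against 12.147, 12.134 and 12.100 in WT hearts. Every Tbx5 KO array was above every WT array, and every double KO array was below every Nkx2-5 KO array. Tmod1 fell in double KO against Tbx5 KO hearts (-0.51 ± 0.09, adjusted p = 0.00246), with adjusted p 0.116 when the mean of its 2 probe sets was used. The fall against WT (-0.25 ± 0.09, adjusted p = 0.0475) ended without any 1 array except Nkx2-5 KO replicate 2 (adjusted p 0.0512 to 0.118) and in 6 other settings (adjusted p 0.0502 to 0.475). The Tbx5 KO change was 0.25 ± 0.09 (adjusted p = 0.161). The departure of the double KO from the sum of the single KO effects, called the non-additive term below, was -0.49 ± 0.12 (adjusted p = 0.121), with adjusted p 0.0331 to 0.0458 with an intensity trend or array weights. The second, dimmer Tmod1 probe set averaged 8.47 ± 0.07 in double KO, 8.41 ± 0.09 in Nkx2-5 KO and 8.44 ± 0.22 in Tbx5 KO, against 8.46 ± 0.10 in WT hearts.

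Ttn encodes titin, the spring that spans from Z-disc to M-band. It had 13.64, 13.67 and 13.57 in double KO, 13.61, 13.33 and 13.52 in Nkx2-5 KO and 13.61, 13.55 and 13.56 in Tbx5 KO, against 13.30, 13.36 and 13.29 in WT hearts. The double KO and Tbx5 KO arrays lay above all WT arrays. Ttn rose in double KO hearts (0.31 ± 0.09, 1.24-fold, adjusted p = 0.0243), and its Nkx2-5 KO and Tbx5 KO differences were 0.17 ± 0.09 (adjusted p = 0.375) and 0.25 ± 0.09 (adjusted p = 0.18). The call ended without double KO replicate 1 or 2 or WT replicate 1 or 3 (adjusted p 0.0629 to 0.0824) and with equal array medians (adjusted p 0.153).

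At the M-band, Myom2, the myomesin of fast and mature muscle, was highest in double KO hearts. It had 7.20, 7.68 and 7.83 in double KO, 6.86, 6.84 and 6.95 in Nkx2-5 KO and 6.82, 6.78 and 6.82 in Tbx5 KO, against 7.10, 6.90 and 7.03 in WT hearts. All double KO arrays were above every other array. Its double KO difference was 0.56 ± 0.14 (adjusted p = 0.00982) against WT, 0.69 ± 0.14 (adjusted p = 0.0115) against Nkx2-5 KO and 0.76 ± 0.14 (adjusted p = 0.00321) against Tbx5 KO hearts. The rise against WT ended after quantile normalization again and with arrays on a common spread (adjusted p 0.0602 to 0.0603). The rise against Nkx2-5 KO ended without double KO replicate 2 (adjusted p 0.0544) and with only the arrays compared (adjusted p 0.0615). Its non-additive term was 0.90 ± 0.19 (adjusted p = 0.0682), with adjusted p 0.00553 without double KO replicate 1 and adjusted p 0.025 with array weights. Myom2 was dim, with a mean of 7.07 over the 12 arrays, below the median of every array. The filter leaving out the dimmest 25% of genes removed Myom2, so its calls could not be tested in that fit.

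Trim63 encodes MuRF1, a ubiquitin ligase that binds titin near the M-band. It had 9.88, 9.80 and 9.59 in double KO, 10.03, 9.95 and 9.67 in Nkx2-5 KO and 10.15, 10.25 and 10.43 in Tbx5 KO, against 9.76, 9.82 and 9.36 in WT hearts. The Tbx5 KO arrays were above all other arrays. Trim63 rose in Tbx5 KO hearts against WT (0.63 ± 0.14, adjusted p = 0.038), and it fell in double KO against Tbx5 KO hearts (-0.52 ± 0.14, adjusted p = 0.0341). The rise ended without double KO replicate 2, Nkx2-5 KO replicate 2, any 1 Tbx5 KO array, or WT replicate 1 or 3 (adjusted p 0.0504 to 0.137), and with equal medians, a common spread or only the arrays compared (adjusted p 0.0646 to 0.0769). The fall ended without double KO replicate 2 or 3 or any 1 Tbx5 KO array (adjusted p 0.0516 to 0.126) and after quantile normalization again (adjusted p 0.0659). Of 10 markers of trophoblast and decidua listed, 6 were measured, and 2 rose in Tbx5 KO hearts (33.3%, against 2.31% of all genes). The largest difference from WT among the 6 was 4.32. The mean over all 6 was 6.44 to 6.64 on double KO, 6.56 to 6.79 on Nkx2-5 KO, 7.79 to 7.99 on Tbx5 KO and 6.49 to 6.59 on WT arrays. The part of these markers in the Tbx5 KO results was not tested.

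**Figure D3:**
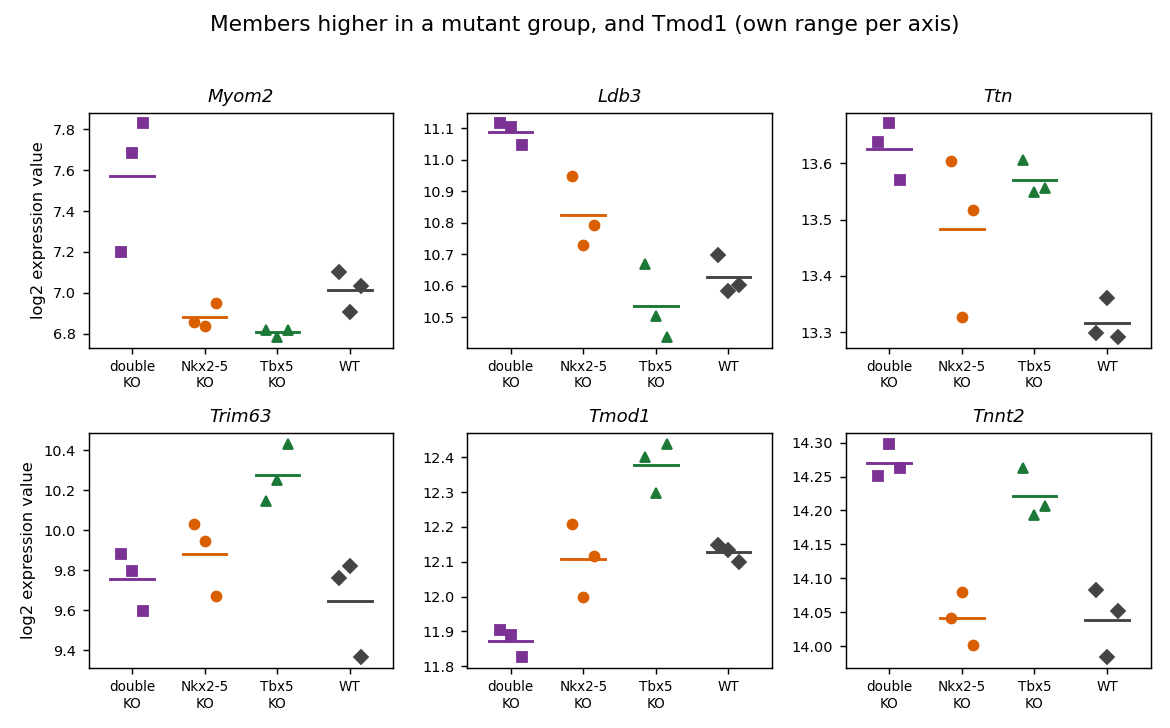
Log2 expression values on each array (points) with group means (lines) for 5 members that rose in at least 1 comparison, and for Tmod1, each axis on its own range. The double KO points of Myom2 and Ldb3 and the Tbx5 KO points of Trim63 lie above all others, and the double KO points of Tmod1 lie below all others.

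Of the 12 Z-disc genes, 5 fell and 1 rose in double KO, 2 fell in Nkx2-5 KO and 2 fell in Tbx5 KO hearts, or 50%, 16.7% and 16.7% called, against 23.4%, 4.43% and 2.31% of all genes. In the same order, 44.4%, 0% and 11.1% of 9 thin filament genes were called. The shares were 50%, 0% and 0% for 2 titin and thick filament genes, and 33.3%, 0% and 33.3% for 3 M-band genes. They were 50%, 50% and 0% for 2 intercalated disc genes and 0% in each genotype for 3 chaperones. Smpx, whose small protein sits where muscle filaments attach and whose gene is X-linked, had the largest change of the members in double KO and Nkx2-5 KO hearts. It had 9.18, 9.10 and 8.33 in double KO, 9.47, 9.55 and 9.03 in Nkx2-5 KO and 11.30, 10.62 and 10.98 in Tbx5 KO, against 12.40, 12.12 and 11.84 in WT hearts. The WT arrays were highest, the Tbx5 KO arrays came next without overlap, and the double KO and Nkx2-5 KO arrays were low and overlapped. Its difference from WT was -3.25 ± 0.24 (9.51-fold, adjusted p = 5.87e-06) in double KO, -2.77 ± 0.24 (6.81-fold, adjusted p = 0.000161) in Nkx2-5 KO and -1.15 ± 0.24 (2.22-fold, adjusted p = 0.0269) in Tbx5 KO hearts. The Tbx5 KO call ended without Tbx5 KO replicate 2 or 3 or WT replicate 1 or 2 (adjusted p 0.058 to 0.104).

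Between the mutants, Smpx was 1.62 ± 0.24 (adjusted p = 0.00259) higher in Tbx5 KO than in Nkx2-5 KO hearts. Double KO against Tbx5 KO gave -2.10 ± 0.24 (adjusted p = 0.000223), and double KO against Nkx2-5 KO gave -0.48 ± 0.24 (adjusted p = 0.266). Its non-additive term was 0.67 ± 0.34 (adjusted p = 0.618). The largest steps of Smpx lie between groups whose sex markers differ, where sex and Nkx2-5 cannot be told apart, and the fall in Tbx5 KO against WT lies between groups with like sex markers. Of the 739 X-linked genes measured, 56 rose and 117 fell in double KO hearts (23.4%, against 23.4% of all genes), and 12 rose and 28 fell in Nkx2-5 KO hearts (5.41%, against 4.43%). In Tbx5 KO hearts 10 rose and 23 fell (4.47%, against 2.31%). Shares over all X-linked genes cannot tell how sex bears on Smpx alone.

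**Figure D4:**
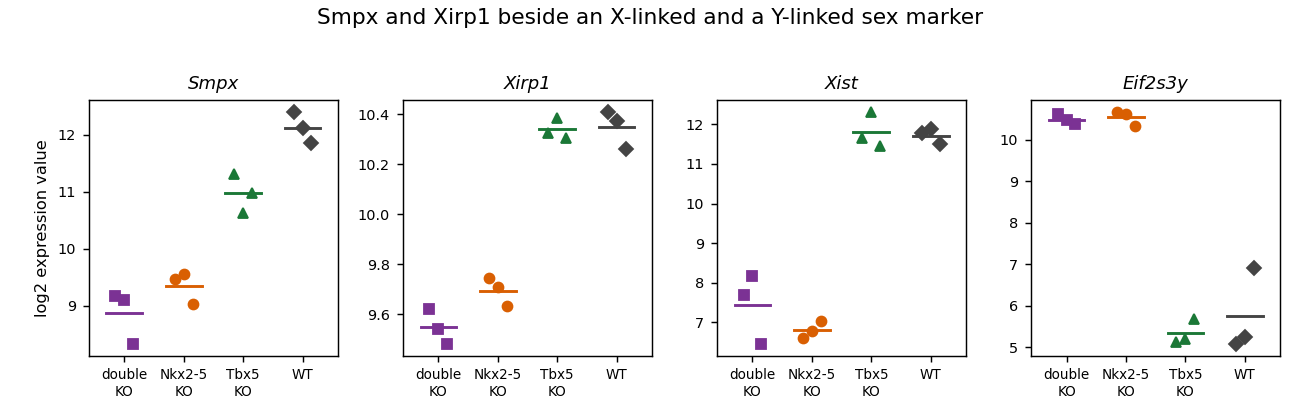
Log2 expression values on each array (points) with group means (lines) for Smpx and Xirp1, the X-linked RNA Xist and the Y-linked Eif2s3y, each axis on its own range. In Smpx the Tbx5 KO points lie below the WT points without overlap, while in Xirp1, Xist and Eif2s3y these 2 groups overlap.

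Myoz2, calsarcin 1, a Z-disc protein that binds calcineurin, also fell in every mutant. It had 7.86, 7.77 and 7.38 in double KO, 7.83, 7.94 and 8.55 in Nkx2-5 KO and 8.04, 7.66 and 7.54 in Tbx5 KO, against 9.76, 10.10 and 8.67 in WT hearts. All WT arrays were above all mutant arrays, WT replicate 3 by a narrow margin, and the 3 mutant groups overlapped. Its difference from WT was -1.84 ± 0.31 (3.58-fold, adjusted p = 0.00101) in double KO, -1.40 ± 0.31 (2.64-fold, adjusted p = 0.0247) in Nkx2-5 KO and -1.76 ± 0.31 (3.39-fold, adjusted p = 0.0114) in Tbx5 KO hearts. The Nkx2-5 KO call ended without Nkx2-5 KO replicate 1 or 2 or WT replicate 1 or 2 (adjusted p 0.0615 to 0.109) and with only the arrays compared (adjusted p 0.0624). No pair of mutants was called, and the 95% interval of double KO minus Tbx5 KO was -0.75 to 0.59. The non-additive term was 1.32 ± 0.44 (adjusted p = 0.301), with adjusted p 0.0406 without WT replicate 3. Smpx and Myoz2 were the 2 of 31 members (6.45%) called in all 3 comparisons with WT, against 0.853% of all genes.

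Csrp3, muscle LIM protein, had 12.32, 12.02 and 12.19 in double KO, 12.84, 12.66 and 12.73 in Nkx2-5 KO and 13.05, 12.84 and 12.80 in Tbx5 KO, against 13.29, 13.03 and 13.01 in WT hearts. All double KO arrays lay below every other array. Its double KO difference was -0.93 ± 0.11 (1.90-fold, adjusted p = 0.000141) against WT, -0.56 ± 0.11 (adjusted p = 0.0143) against Nkx2-5 KO and -0.72 ± 0.11 (adjusted p = 0.00177) against Tbx5 KO hearts. The second of these ended without double KO replicate 2 or Nkx2-5 KO replicate 1 (adjusted p 0.0644 to 0.0646). The single KO changes were -0.37 ± 0.11 (adjusted p = 0.096) in Nkx2-5 KO and -0.21 ± 0.11 (adjusted p = 0.427) in Tbx5 KO hearts, and the non-additive term was -0.35 ± 0.16 (adjusted p = 0.567).

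Actn2, the alpha-actinin that cross-links actin in the Z-disc, had 11.23, 11.37 and 11.88 in double KO, 12.28, 11.95 and 12.16 in Nkx2-5 KO and 12.04, 12.01 and 11.99 in Tbx5 KO, against 12.19, 12.23 and 12.03 in WT hearts. Double KO arrays were below all others, replicate 3 by a narrow margin. The double KO difference was -0.66 ± 0.15 (adjusted p = 0.00696) against WT, -0.64 ± 0.15 (adjusted p = 0.0272) against Nkx2-5 KO and -0.52 ± 0.15 (adjusted p = 0.0423) against Tbx5 KO hearts. For the call against Nkx2-5 KO, leaving out Nkx2-5 KO replicate 1 or 3, or double KO replicate 1 or 2, ended it (adjusted p 0.0645 to 0.109). It also ended in a fit to only the arrays compared and after a further quantile normalization (adjusted p 0.0634 to 0.0991). The call against Tbx5 KO ended without any 1 array except double KO replicate 3 and Nkx2-5 KO replicate 2 (adjusted p 0.0512 to 0.15), and in 4 other settings (adjusted p 0.0589 to 0.102). Csrp3, Actn2 and Myom2 were the 3 members (9.68%) called in the same direction in double KO against all 3 other groups, beside 3.67% of all genes.

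Pdlim3, the actinin-associated LIM protein, had 8.52, 8.84 and 9.66 in double KO, 9.54, 9.64 and 9.49 in Nkx2-5 KO and 9.29, 9.72 and 9.25 in Tbx5 KO, against 10.57, 10.06 and 10.12 in WT hearts. WT arrays were above all mutant arrays. Pdlim3 fell in double KO hearts (-1.25 ± 0.24, 2.37-fold, adjusted p = 0.00257). The differences from WT were -0.70 ± 0.24 (adjusted p = 0.132) in Nkx2-5 KO and -0.83 ± 0.24 (adjusted p = 0.103) in Tbx5 KO hearts. Both were called with array weights (adjusted p 0.0375 in Nkx2-5 KO and adjusted p 0.0311 in Tbx5 KO). The Nkx2-5 KO difference was also called with only the arrays compared (adjusted p 0.0382). Without double KO replicate 3, whose value lay among the single KO arrays, all 3 mutants were called against WT (adjusted p 0.0299 in Nkx2-5 KO and adjusted p 0.0198 in Tbx5 KO). Double KO was then also called against Nkx2-5 KO (adjusted p 0.0144) and Tbx5 KO (adjusted p 0.0209).

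**Figure D5:**
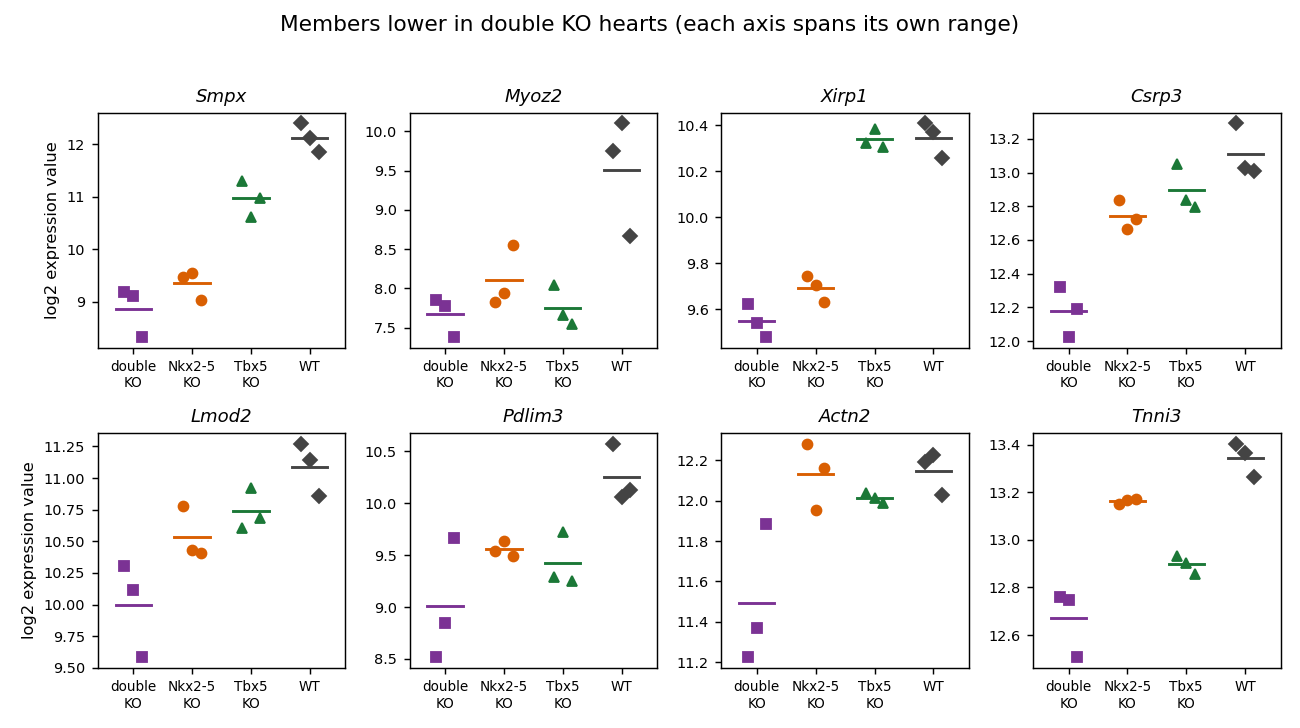
Log2 expression values on each array (points) with group means (lines) for 8 members that fell in double KO hearts, each axis on its own range. Myoz2 and Pdlim3 are highest on WT arrays, Xirp1 splits the 6 arrays without Nkx2-5 from the 6 with it, and Csrp3 and Lmod2 are lowest on double KO arrays.

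Ldb3 encodes the Z-disc protein Cypher, also named ZASP. It had 11.12, 11.10 and 11.05 in double KO, 10.95, 10.73 and 10.79 in Nkx2-5 KO and 10.67, 10.50 and 10.44 in Tbx5 KO, against 10.70, 10.58 and 10.60 in WT hearts. All double KO arrays lay above every other array. Ldb3 rose in double KO hearts against WT (0.46 ± 0.09, 1.38-fold, adjusted p = 0.00336) and against Tbx5 KO (0.55 ± 0.09, adjusted p = 0.00251), and double KO minus Nkx2-5 KO was 0.26 ± 0.09 (adjusted p = 0.12). The single KO differences from WT were 0.20 ± 0.09 (adjusted p = 0.3) in Nkx2-5 KO and -0.09 ± 0.09 (adjusted p = 0.752) in Tbx5 KO hearts.

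The other Z-disc members were not called. Tcap, the telethonin that caps titin at the Z-disc, was scattered. It had 8.737, 9.589 and 9.201 in double KO, 9.644, 9.576 and 9.233 in Nkx2-5 KO and 8.709, 8.752 and 9.325 in Tbx5 KO, against 9.421, 9.693 and 9.472 in WT hearts. Its Tbx5 KO difference was -0.60 ± 0.21 (adjusted p = 0.181). Des, the desmin of intermediate filaments, averaged 10.92 ± 0.04 in double KO, 10.91 ± 0.25 in Nkx2-5 KO and 11.30 ± 0.08 in Tbx5 KO, against 11.21 ± 0.15 in WT hearts. Double KO minus Tbx5 KO was -0.38 ± 0.12 (adjusted p = 0.0722) for Des, with adjusted p 0.0302 without Nkx2-5 KO replicate 2. That difference was also called with equal array medians, array weights or only the arrays compared (adjusted p 0.0345 to 0.0485). Pdlim5, a PDZ and LIM protein, averaged 13.00 ± 0.03 in double KO, 12.62 ± 0.22 in Nkx2-5 KO and 12.90 ± 0.24 in Tbx5 KO, against 12.86 ± 0.02 in WT hearts. Synpo2l, an actin-associated Z-disc protein, had 9.90, 10.27 and 10.40 in double KO, 9.91, 9.81 and 9.93 in Nkx2-5 KO and 9.91, 10.03 and 9.87 in Tbx5 KO, against 9.95, 9.96 and 9.91 in WT hearts. Its double KO difference was 0.25 ± 0.12 (adjusted p = 0.138) against WT, 0.30 ± 0.12 (adjusted p = 0.152) against Nkx2-5 KO and 0.25 ± 0.12 (adjusted p = 0.202) against Tbx5 KO. Without double KO replicate 1, which lay among the other groups, Synpo2l was called in these comparisons (adjusted p 0.0153, adjusted p 0.0273 and adjusted p 0.0279).

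Xirp1, an actin-binding repeat protein of the intercalated discs that join heart muscle cells, fell in the genotypes without Nkx2-5. It had 9.62, 9.54 and 9.48 in double KO, 9.74, 9.71 and 9.63 in Nkx2-5 KO and 10.33, 10.39 and 10.31 in Tbx5 KO, against 10.41, 10.37 and 10.26 in WT hearts. Arrays without Nkx2-5 lay below arrays with it across a wide gap. Its difference from WT was -0.80 ± 0.08 (1.74-fold, adjusted p = 4.85e-05) in double KO, -0.65 ± 0.08 (1.57-fold, adjusted p = 0.00174) in Nkx2-5 KO and -0.01 ± 0.08 (adjusted p = 0.985) in Tbx5 KO hearts. Xirp1 was 0.65 ± 0.08 (adjusted p = 0.00104) higher in Tbx5 KO than in Nkx2-5 KO hearts, and double KO against Tbx5 KO gave -0.79 ± 0.08 (adjusted p = 0.000131). The 4 calls for Xirp1 held in each of the 21 alternative fits. Xirp1 lies on chromosome 9, but its groups separate as the sex markers do, so sex and Nkx2-5 cannot be told apart for it. Its relative Xirp2 was not called, and averaged 6.41 ± 0.06 in double KO, 6.15 ± 0.13 in Nkx2-5 KO and 6.22 ± 0.27 in Tbx5 KO, against 6.49 ± 0.07 in WT hearts.

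The chaperone genes were not called in any comparison with WT. Cryab, the small heat shock protein alpha B-crystallin that binds desmin and titin, averaged 12.43 ± 0.06 in double KO, 12.44 ± 0.01 in Nkx2-5 KO and 12.45 ± 0.06 in Tbx5 KO, against 12.60 ± 0.15 in WT hearts. Unc45b, the myosin folding chaperone, averaged 10.31 ± 0.10 in double KO, 9.98 ± 0.11 in Nkx2-5 KO and 10.36 ± 0.19 in Tbx5 KO, against 10.13 ± 0.07 in WT hearts. Hspb7, a cardiac small heat shock protein, had 10.15, 10.08 and 10.26 in double KO, 9.83, 9.91 and 10.03 in Nkx2-5 KO and 10.68, 10.22 and 10.64 in Tbx5 KO, against 10.44, 10.15 and 10.55 in WT hearts. It was 0.59 ± 0.14 (adjusted p = 0.0428) higher in Tbx5 KO than in Nkx2-5 KO hearts. That call ended without double KO replicate 1 or 2, any 1 Nkx2-5 KO array, Tbx5 KO replicate 1 or 3, or WT replicate 1 (adjusted p 0.0549 to 0.172), and with only the arrays compared (adjusted p 0.0763). The Nkx2-5 KO difference from WT was -0.45 ± 0.14 (adjusted p = 0.0816), with adjusted p 0.0419 to 0.0459 without Tbx5 KO replicate 2 or WT replicate 2. With array weights that difference had adjusted p 0.0166.

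Set directly against Nkx2-5 KO hearts, double KO hearts had lower Tnni3, Actn2 and Csrp3 and higher Myom2, 4 of 31 members (12.9%), against 5.56% of all genes called, 1.01% higher and 4.55% lower. The count was 1 without double KO replicate 2 and 2 without Nkx2-5 KO replicate 1, and its split became 3 higher and 2 lower after quantile normalization again. Set against Tbx5 KO hearts, double KO hearts had lower Smpx, Xirp1, Csrp3, Lmod2, Actn2, Tmod1 and Trim63 and higher Myom2 and Ldb3, 9 members (29%), against 10.7% of all genes, 2.87% higher and 7.86% lower. That split was 2 higher and 4 lower after quantile normalization again. Between the single mutants, Smpx, Xirp1 and Hspb7 were higher in Tbx5 KO than in Nkx2-5 KO hearts, 3 members (9.68%), against 2.39% of all genes called, 1.01% higher and 1.37% lower. For the non-additive term limma called 0 of 31 members, and 7 had an unadjusted p under 0.05, as did 1772 of the 19938 genes. Those 7 were Myom2, Tmod1, Trim63, Xirp2, Myoz2, Ldb3 and Actn2. The term was -0.75 ± 0.20 (adjusted p = 0.158) for Trim63 and 0.54 ± 0.18 (adjusted p = 0.296) for Xirp2. It was 0.36 ± 0.13 (adjusted p = 0.394) for Ldb3 and -0.50 ± 0.21 (adjusted p = 0.492) for Actn2. Of all genes 0.547% were called for the non-additive term, 0.0903% higher and 0.456% lower. Leaving out double KO replicate 1 or WT replicate 3 made the count of members 1, Myom2 without the first and Myoz2 without the second.

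Of 81 further genes of the sarcomere and its attachments, 78 were measured. In double KO hearts 13 rose and 16 fell (37.2%, against 23.4% of all genes). The split was 7 and 23 with equal array medians, and the total was 19 without WT replicate 1. The 4 largest falls were those of the fast troponin I Tnni2 (-1.56 ± 0.16, adjusted p = 3.99e-05), the small heat shock proteins Hspb8 (-1.50 ± 0.23, adjusted p = 0.000513) and Hspb3 (-1.36 ± 0.17, adjusted p = 0.00016), and Pgm5, a protein of adherens junctions (-0.98 ± 0.14, adjusted p = 0.000403). The 4 largest rises were those of Ctnna3, the alpha-T-catenin of intercalated discs (1.37 ± 0.24, adjusted p = 0.00134), the X-linked dystrophin gene Dmd (1.29 ± 0.23, adjusted p = 0.00155), plakoglobin, Jup (1.02 ± 0.15, adjusted p = 0.000356), and talin 2, Tln2 (0.86 ± 0.13, adjusted p = 0.000645).

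In Nkx2-5 KO hearts 4 of these genes rose and 5 fell (11.5%, against 4.43% of all genes). The 4 largest falls were those of Hspb8 (-1.06 ± 0.23, adjusted p = 0.0219), Hspb3 (-0.92 ± 0.17, adjusted p = 0.0135), the myosin light chain kinase Mylk3 (-0.78 ± 0.10, adjusted p = 0.00178) and Tnni2 (-0.69 ± 0.16, adjusted p = 0.0291). Dmd (1.16 ± 0.23, adjusted p = 0.0171), the formin Fhod3 (0.59 ± 0.12, adjusted p = 0.0202), the sarcoglycan Sgcd (0.56 ± 0.11, adjusted p = 0.018) and desmoplakin, Dsp (0.50 ± 0.12, adjusted p = 0.0312), rose. The total was 1 without Nkx2-5 KO replicate 1 or 3, 2 without WT replicate 1 and 4 without WT replicate 3. In Tbx5 KO hearts desmocollin 2, Dsc2 (-1.40 ± 0.16, adjusted p = 0.000579), the leiomodin Lmod3 (-1.06 ± 0.14, adjusted p = 0.00148) and the LIM protein Fhl2 (-0.68 ± 0.15, adjusted p = 0.038) fell, and Tln2 (0.60 ± 0.13, adjusted p = 0.0363) rose. Those 3 falls and 1 rise (5.13%, against 2.31% of all genes) were 3 and 3 after quantile normalization again and 0 rises and 3 falls with equal medians. The total was 2 without Tbx5 KO replicate 1 or 3 or WT replicate 1.

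Whole hearts were measured, so fewer muscle cells and less RNA per muscle cell cannot be told apart. Of all genes 23.4% were called in double KO, 4.43% in Nkx2-5 KO and 2.31% in Tbx5 KO hearts. In the same order, the shares were 38.5%, 15.4% and 23.1% for heart muscle genes outside the sarcomere and 50%, 16.7% and 0% for myosin chains. They were 33.3%, 16.7% and 8.33% for endoderm and 46.2%, 0% and 7.69% for endocardium and endothelium. Of 13 heart muscle genes outside the sarcomere, 4 rose and 1 fell in double KO, 2 fell in Nkx2-5 KO, and 2 rose and 1 fell in Tbx5 KO hearts, with mean levels of 10.89 to 10.94 on double KO, 10.58 to 10.85 on Nkx2-5 KO, 10.79 to 10.84 on Tbx5 KO and 10.66 to 10.77 on WT arrays. Of 6 myosin chain genes, 1 rose and 2 fell in double KO, 1 fell in Nkx2-5 KO and 0 were called in Tbx5 KO hearts, with mean levels of 13.19 to 13.32 on double KO, 13.43 to 13.56 on Nkx2-5 KO, 13.46 to 13.54 on Tbx5 KO and 13.48 to 13.53 on WT arrays. Of 12 endoderm genes, 4 rose in double KO, 2 in Nkx2-5 KO and 1 in Tbx5 KO hearts, with mean levels of 8.68 to 8.99 on double KO, 8.53 to 8.86 on Nkx2-5 KO, 8.53 to 8.57 on Tbx5 KO and 8.31 to 8.65 on WT arrays. Of 13 genes of endocardium and endothelium, 1 rose and 5 fell in double KO, 0 were called in Nkx2-5 KO and 1 fell in Tbx5 KO hearts, with mean levels of 9.64 to 9.73 on double KO, 9.88 to 10.08 on Nkx2-5 KO, 9.60 to 9.70 on Tbx5 KO and 9.46 to 10.12 on WT arrays.

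The remaining lists had calls against WT in double KO hearts and 0 by limma in either single KO. The double KO share was 50% for erythroid, 25% for smooth muscle, 30% for mesenchyme and 11.1% for skeletal muscle genes. Of all genes 23.4% were called there. Of 8 erythroid genes 4 fell in double KO hearts, and the mean level was 9.30 to 9.98 on double KO, 10.03 to 10.89 on Nkx2-5 KO, 10.26 to 10.30 on Tbx5 KO and 9.88 to 11.41 on WT arrays. Of 8 smooth muscle genes 2 fell, and the mean level was 9.94 to 10.10 on double KO, 9.94 to 10.13 on Nkx2-5 KO, 9.90 to 10.12 on Tbx5 KO and 10.16 to 10.28 on WT arrays. Of 10 genes of pharyngeal mesenchyme and neural crest 1 rose and 2 fell, and the mean level was 8.63 to 8.67 on double KO, 8.51 to 9.25 on Nkx2-5 KO, 8.36 to 8.44 on Tbx5 KO and 8.23 to 8.59 on WT arrays. Of 9 skeletal muscle genes 1 rose, and the mean level was 7.73 to 7.82 on double KO, 7.55 to 7.73 on Nkx2-5 KO, 7.63 to 7.73 on Tbx5 KO and 7.59 to 7.67 on WT arrays. At an unadjusted p under 0.05, Nkx2-5 KO hearts had 0 erythroid, 2 smooth muscle, 2 mesenchyme and 0 skeletal muscle genes, and Tbx5 KO hearts had 1, 2, 2 and 1 in the same order. Of the 19938 genes, 3538 in Nkx2-5 KO and 2978 in Tbx5 KO hearts had an unadjusted p under 0.05 by limma. The part of these lists in the members' changes was not tested.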

How the data were processed

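The authors deposited log2 expression values for 35557 probe sets on 12 Affymetrix arrays. The program and normalization behind these log2 values were not given in the sources used here, and nothing was normalized further. Per the labels' protocols, RNA from the hearts was amplified and biotin-labelled before hybridization. Gene names came from the platform annotation, through the 21789 probe sets that carry exactly 1 symbol. All 31 members matched the RefSeq table by Entrez number, and 2 had a second probe set.

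A model with the 4 group means was fitted with limma 3.58.1 in R 4.3.3 to 19938 genes, without a filter on dim genes (8 residual and 4.51 prior degrees of freedom). All p-values are two-sided, with Benjamini-Hochberg adjustment within each of 7 comparisons, and intervals are 95%. The fit was run on simulated data with changes placed in the double KO group only. Those changes were larger than most of the members' changes, so that run does not tell how smaller changes fare. With 3 arrays a group, the number of arrays limits the precision. Plots were made with matplotlib 3.10.9.

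The members, gene lists and motifs were chosen with earlier results of these data known. Genes named are all members and, of the 78 other sarcomere genes, up to 4 called rises and 4 called falls in each comparison with WT. The 4 promoters shown were chosen after their values were seen. Alternatives were quantile normalization again, equal array medians, a common spread, a filter leaving out the dimmest 25% of genes, an intensity trend, array weights, only the arrays compared, a replicate block, the mean of a gene's probe sets, and each array left out in turn.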

Additional observations from a re-analysis of the deposited data

How the results depend on the processing

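Over the 21 alternatives, 20 of the 36 calls made for a member in a comparison held in every fit that kept the gene, and 16 ended in at least 1. Of the other member comparisons, 33 were called in at least 1 alternative. The filter on dim genes left out Myom2 and Xirp2, so their comparisons were not tested in that fit. No called change turned its direction (0 cases). Apart from the fits with 1 array left out, given below, the number of members called moved by more than 1.5 times in the following fits. With array weights it was 6 in Nkx2-5 KO against WT (3 in the fit reported), 5 in Tbx5 KO against Nkx2-5 KO (3) and 2 for the non-additive term (0). With only the arrays compared it was 2 in Tbx5 KO against WT (4) and 2 in double KO against Nkx2-5 KO (4), and with an intensity trend it was 1 for the non-additive term. Of the other sarcomere genes, those called in Nkx2-5 KO against WT were 15 with array weights (9 reported). In Tbx5 KO against WT they were 2 with a common spread, 7 with the filter on dim genes, 11 with array weights and 2 with a replicate block (4 reported). In double KO against Nkx2-5 KO they were 14 with array weights and 5 with only the arrays compared (8 reported), in Tbx5 KO against Nkx2-5 KO 17 with array weights (11 reported), and for the non-additive term 1 with array weights (0 reported). The cause of these moves was not tested.

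With 1 array left out in turn, the members called ranged from 10 to 12 in double KO, 2 to 5 in Nkx2-5 KO and 1 to 5 in Tbx5 KO against WT. They ranged from 1 to 5 in double KO against Nkx2-5 KO, 7 to 10 in double KO against Tbx5 KO, 2 to 4 in Tbx5 KO against Nkx2-5 KO and 0 to 1 for the non-additive term. For the other sarcomere genes the ranges were 19 to 29 in double KO, 1 to 12 in Nkx2-5 KO and 2 to 6 in Tbx5 KO against WT. They were 3 to 11 in double KO against Nkx2-5 KO, 9 to 19 in double KO against Tbx5 KO, 7 to 12 in Tbx5 KO against Nkx2-5 KO and 0 to 1 for the non-additive term. Over all genes the count against WT was 4672 in double KO (3254 to 4751 with 1 array left out), 884 in Nkx2-5 KO (169 to 1091, and up to 2132 in the other settings) and 461 in Tbx5 KO (212 to 551, and up to 933). It was 1109 in double KO against Nkx2-5 KO (521 to 1255, and 570 to 2481), 2139 in double KO against Tbx5 KO (1300 to 2207), 476 in Tbx5 KO against Nkx2-5 KO (254 to 526, and up to 1424) and 109 for the non-additive term (48 to 264, and 61 to 343).

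Deviations from group means correlated from -0.27 to 0.21 in the 18 pairs with the same replicate number in the titles. They correlated from -0.26 to 0.26 in the 36 other pairs. These ranges, pooled over all groups, cannot tell whether arrays of some groups were paired by number. With the number as a replicate block, the members called numbered 11 in double KO, 3 in Nkx2-5 KO and 4 in Tbx5 KO against WT, 4 in double KO against Nkx2-5 KO, 8 in double KO against Tbx5 KO, 3 in Tbx5 KO against Nkx2-5 KO and 0 for the non-additive term.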
